A study of Mus musculus with 12 samples.

Results

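The hippocampus of 12-month-old mice that express N40K in their neurons was compared with that of wild-type littermates of the same age. The comparison used the 3 N40K and the 3 wild-type libraries of that age, 6 of the 12 libraries of the study, and the 13542 of 23352 gene entries that reached 1 FPKM or more in 3 or more of them. FPKM counts fragments per kilobase of transcript and per mapped mega read. The N40K mice belonged to 1 transgenic line, Tg396, whose transgene is driven in neurons by a modified CaMKIIa promoter. Both groups were on the C57BL/6J strain, and the controls carried no transgene. The other 6 libraries came from both genotypes at 3 months and enter here only beside single results. Poly-A selected RNA was sequenced from hippocampus as paired reads. In such bulk RNA, fewer cells of a type and less RNA per cell cannot be told apart. The labels do not state that each library was a separate mouse, so the p-values measure the spread between these libraries.

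N40K is a truncated form of U1-70K, the protein that Snrnp70 encodes. U1-70K binds the U1 small nuclear RNA in the U1 small nuclear ribonucleoprotein particle (snRNP), which pairs with the 5′ splice site of introns and also protects long transcripts from ending early. In Alzheimer's disease U1 snRNP proteins accumulate outside the nucleus in brain, together with truncated forms of U1-70K. The hippocampus holds pyramidal and granule neurons, in which CaMKIIa is active, beside interneurons, glia and vessels, in which it is largely not.

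All 6 libraries had reads of Y-linked Ddx3y, at 14.1 to 17.6 FPKM. Depths recovered from the steps between low values of receptor genes were 64.2, 44.2 and 96.8 mega reads in wild-type replicates 1, 2 and 3, and 42.6, 90.0 and 65.1 mega reads in N40K replicates 1, 2 and 3. Correlations of log2 values ran from 0.988 to 0.997 within a group and from 0.98 to 0.992 between the groups. Defining markers of neurons, astrocytes, oligodendrocytes, microglia and vessels were present in all 6 libraries. Choroid plexus markers, which come from tissue beside the hippocampus, were uneven. Their summed level over 23 markers, 0 of which were at 0 throughout, was 1722, 1392 and 2809 FPKM in wild type and 105, 355 and 3886 FPKM in N40K. N40K replicate 3 also had the highest sum of 18 meningeal markers, 1057 FPKM against 303 to 737 FPKM elsewhere. Wild-type replicate 2 stood apart in the mean log2 deviation of ribosomal protein genes, 0.19 against -0.03 to 0.03 in the other wild-type libraries, and of giant genes, -0.27 against -0.02 to 0.03. Several list medians below are also given without such a library.

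**Figure D1:**
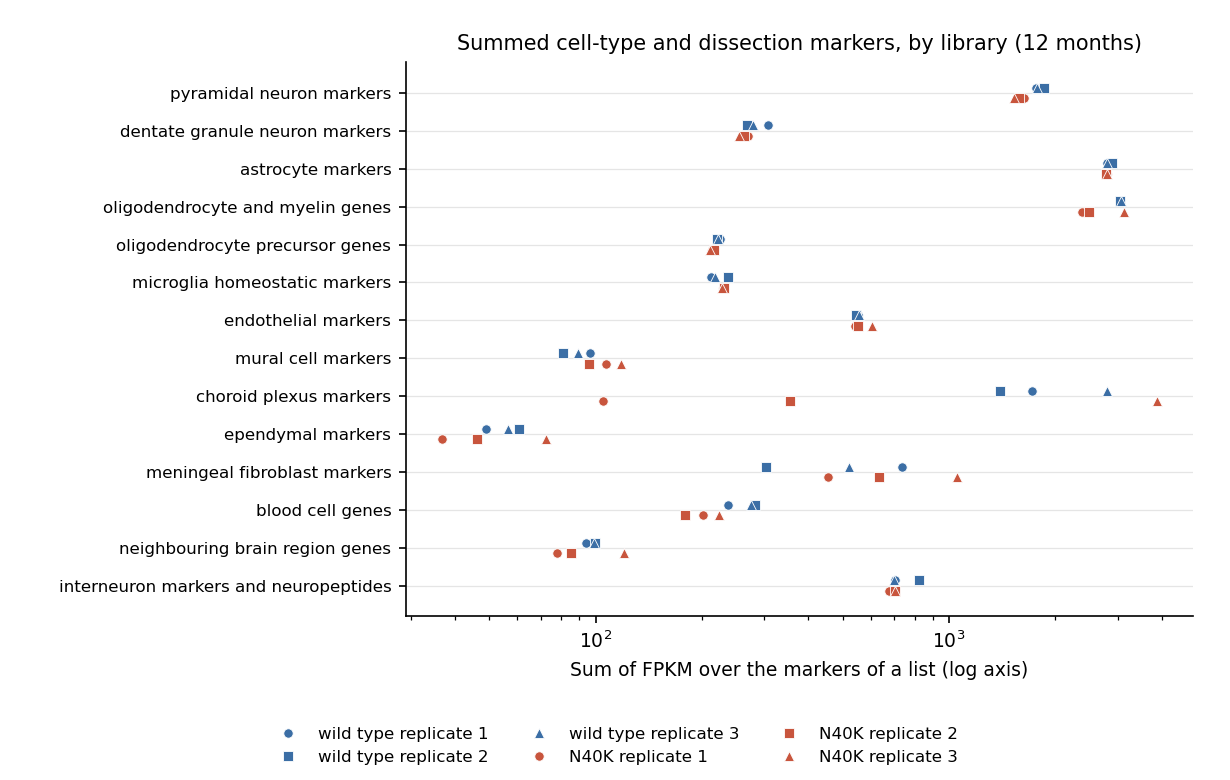
Sum of FPKM over the marker genes of each list (log axis) in the 6 libraries at 12 months, wild type in blue and N40K in red, with a marker shape for each replicate. Microglia sums overlap between the groups, astrocyte sums lie between 2776 and 2897 FPKM with N40K just under wild type, and choroid plexus sums run from 105 to 3886 FPKM with N40K replicate 3 highest and N40K replicate 1 lowest.

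Differences were tested with limma on log2(FPKM + 1), and a gene was called when its Benjamini-Hochberg adjusted p over all 13542 genes was under 0.05. Differences below are N40K minus wild type on that scale with their standard error, where the added 1 shrinks the change of low genes. Levels of a gene are listed for replicates 1, 2 and 3 of each group. Of the 13542 genes 1532 were called (11.3%), 936 higher (6.91%) and 596 lower (4.4%) in N40K. The 6 values of every called gene separated the groups without overlap, as did those of 5304 genes in all (39.2%). The median difference over all genes was 0.004, and the median size of the called differences was 0.34, with 312 of at least 0.5 and 44 of at least 1. Rises were spread over genes of low and middle level, and falls over genes of high level. In the fifth of genes with the lowest mean FPKM 8.6% were called higher and 1.92% lower, and in the fifth with the highest 2.66% and 7.79%. Without N40K replicate 1 or 2 the calls numbered 224 and 157, without N40K replicate 3 762, and without wild-type replicates 1 and 3 977 and 813. Of all calls 147 held with each of the 6 libraries left out in turn, described below as stable to omission, and of the 359 named genes that were called 56 did so.

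**Figure D2:**
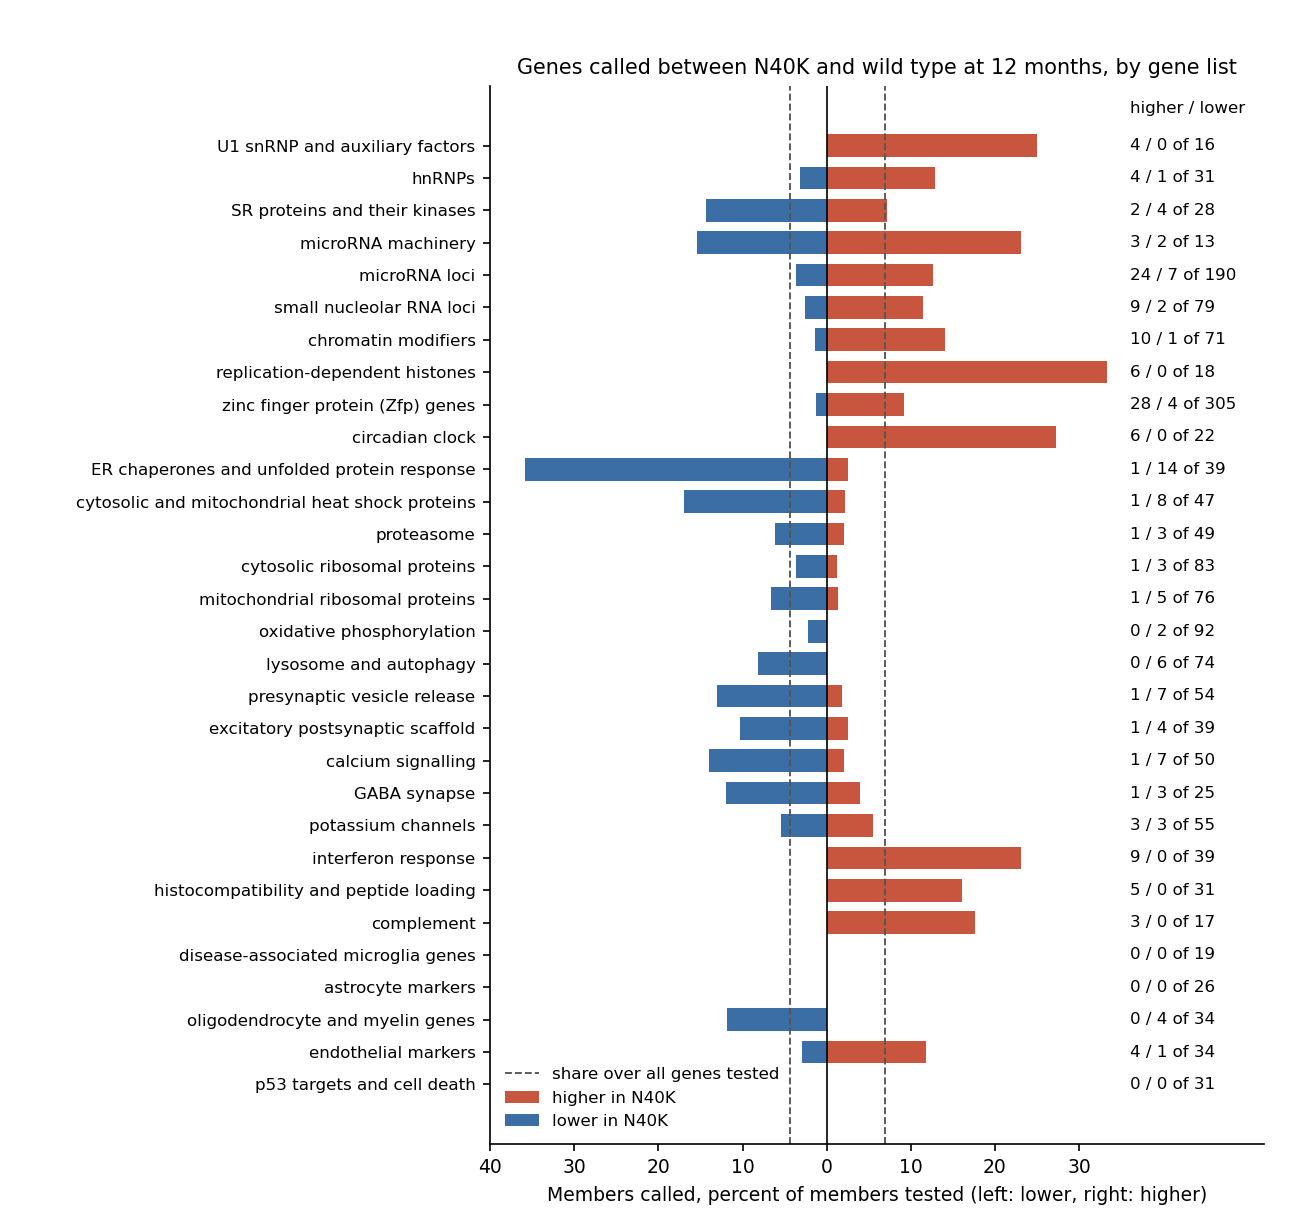
Share of the tested members of 30 gene lists called higher (red, right) or lower (blue, left) in N40K at 12 months, in percent, with the counts at the right edge and dashed lines at the shares over all genes tested, 6.91% and 4.40%. Endoplasmic reticulum chaperones reach furthest to the left with 14 of 39 members, and interferon response and U1 genes lie to the right. The U1 genes include Snrnp70, whose reads include those of the transgene.

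Snrnp70 checks the labels, because N40K is a part of its protein and the table lists transgene and endogenous reads as 1 gene. It measured 138, 96.0 and 133 FPKM in the wild-type libraries and 305, 320.0 and 259 FPKM in the N40K libraries. The lowest N40K library lay well above the highest wild-type library, a difference of 1.27 ± 0.14 (SE, adjusted p = 0.00469). Hnrnpu, which encodes a nuclear scaffold protein that binds RNA and chromatin, measured 117, 105 and 118 FPKM in the wild-type libraries and 284, 288 and 259 FPKM in the N40K libraries. The groups did not overlap, with a difference of 1.28 ± 0.07 (SE, adjusted p = 5.19e-04). Both calls were stable to omission.

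Of 16 genes for U1 proteins and proteins that act with U1, 4 rose (25%, against 6.91% of all genes) and none fell. The list median was 0.11 (0.04 without wild-type replicate 2) against 0.004 over all genes. Snrnp70 itself is among the 4, and as its reads include those of the transgene, its rise adds no support to the count. Luc7l and Luc7l2 encode U1-associated proteins that tune the choice of splice sites. Luc7l measured 15.2, 12.5 and 14.7 FPKM in the wild-type libraries and 19.9, 18.9 and 18.0 FPKM in the N40K libraries, and rose by 0.40 ± 0.08. Luc7l2, whose exons overlap Gm26699, measured 30.8, 26.2 and 33.6 FPKM in the wild-type libraries and 47.5, 44.3 and 37.3 FPKM in the N40K libraries and rose by 0.50 ± 0.11. Their N40K values stood above every wild-type value. Ddx39b, an RNA helicase that brings U2 snRNP to the intron and takes part in mRNA export, rose by 0.21 ± 0.05 and overlaps 2 small RNA genes. The other 12 members were not called.

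Of 34 genes of the Sm core, the U2 snRNP and the SMN complex, 4 rose (11.8%) and 1 fell (2.94%). All genes gave 6.91% and 4.4%. The U2 protein genes Sf3b3 (0.49 ± 0.05) and U2surp (0.42 ± 0.05) rose in a way stable to omission, and Sf3b1 (0.26 ± 0.05) and Sf1 (0.32 ± 0.05), the branch point binding protein that U2 replaces, rose with calls that were lost without some libraries. Sf3b3, which overlaps Cog4, measured 26.8, 24.5 and 26.6 FPKM in the wild-type libraries and 37.6, 36.3 and 36.5 FPKM in the N40K libraries. All 3 N40K values exceeded all wild-type values by more than the spread within either group. Snrpn, an imprinted gene for a neuronal Sm protein that shares its transcript with Snurf, fell from 83.6, 88.0 and 72.3 to 58.1, 60.7 and 62.8 FPKM (-0.42 ± 0.08). Of 44 tri-snRNP and catalytic genes 1 rose and 3 fell, near the shares over all genes. The riser was Cwc22 (0.49 ± 0.07), which loads the exon junction complex.

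Splicing regulators were called in both directions, as were genes in all (6.91% higher and 4.4% lower). Of 28 genes for SR proteins and their kinases 4 fell (14.3%) and 2 rose (7.14%), although the list median was 0.09 (0.05 without wild-type replicate 2). The members that fell were Srsf3 (-0.29 ± 0.06), Srsf7 (-0.24 ± 0.05), Tra2a (-0.27 ± 0.05) and the kinase gene Srpk2 (-0.18 ± 0.04). Srsf1 rose by 0.24 ± 0.05, from 34.7, 31.2 and 34.4 to 39.6, 40.3 and 39.0 FPKM, and Scaf11 by 0.20 ± 0.05. Among 31 hnRNP genes 4 rose (12.9%) and 1 fell (3.23%). Beside Hnrnpu these were Hnrnpa1 (0.52 ± 0.11), Hnrnph3 (0.34 ± 0.09) and Ewsr1 (0.28 ± 0.07), with Hnrnph1 lower (-0.23 ± 0.06). Hnrnpa1 measured 27.1, 27.8 and 25.6 FPKM in the wild-type libraries and 46.8, 35.3 and 35.6 FPKM in the N40K libraries, so N40K replicate 1 was highest and the other 2 lay nearer to wild type. Of the neuron-restricted regulators, Celf5 (0.40 ± 0.07) and Nova2 (0.26 ± 0.05) rose, and Rbfox3 (-0.29 ± 0.06), which encodes the neuronal marker NeuN, and Celf4 (-0.25 ± 0.05) fell, among 27 tested (7.41% each way). Cleavage and polyadenylation genes held 2 rises of 23, in Pcf11 (0.30 ± 0.06), a termination factor, and Cpsf3 (0.18 ± 0.04), the endonuclease that cuts pre-mRNA. Of 47 genes for mRNA export, exon junctions and decay 1 was called, the export gene Thoc2 (0.24 ± 0.06).

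Among genes with a mean of at least 10 FPKM the largest rise was in Lgals6, a galectin gene, which measured 4.97, 3.72 and 5.10 FPKM in the wild-type libraries and 15.6, 17.7 and 17.3 FPKM in the N40K libraries. Its reads may be shared with the near-identical Lgals4, so the split between the copies is uncertain. Peg3, an imprinted zinc finger gene, rose from 26.6, 22.5 and 28.0 to 63.2, 64.8 and 58.4 FPKM, and its antisense transcript Peg3as from 38.3, 33.9 and 40.9 to 83.2, 85.1 and 76.3 FPKM, and as the strand used in counting is not known, the reads of the pair may not be separate. Pou6f1, a POU transcription factor gene, rose from 21.1, 17.5 and 19.3 to 43.3, 42.6 and 39.5 FPKM. In all 4 of these genes the lowest N40K value was well above the highest wild-type value, and each call was stable to omission. Col11a2, a fibrillar collagen gene, rose by 1.22 ± 0.14, and Ttc8, a subunit of the BBSome that traffics cargo to cilia, by 0.94 ± 0.07. Arpp21, a phosphoprotein of neurons regulated by cyclic AMP, rose by 0.91 ± 0.09, and Slc20a1, a phosphate transporter, by 0.80 ± 0.08, each overlapping a noncoding gene. Trappc6a, a vesicle tethering subunit, rose by 0.83 ± 0.07. These 5 calls were stable to omission too. The calls of Leprel2 (a collagen prolyl hydroxylase, 0.82 ± 0.14) and Sap25 (a subunit of the Sin3 corepressor, 0.96 ± 0.21) were lost without some libraries.

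The largest fall at that level was in Chordc1, a co-chaperone of HSP90, which measured 30.1, 35.8 and 30.8 FPKM in the wild-type libraries and 15, 14 and 14.2 FPKM in the N40K libraries. Scg5, whose product 7B2 is the chaperone of the prohormone convertase PC2, measured 103, 124 and 104 FPKM in the wild-type libraries and 51.9, 54.4 and 50.6 FPKM in the N40K libraries. Ddn, which encodes the postsynaptic protein dendrin and overlaps B130046B21Rik, measured 386, 401 and 380.3 FPKM in the wild-type libraries and 216, 208 and 194 FPKM in the N40K libraries. In each of the 3 genes every N40K library was at about the same level and below all wild-type libraries. Ak5, an adenylate kinase of brain, fell by 0.91 on the log2 scale (SE 0.05), although its exons overlap those of Zzz3 and AI115009. Kcnmb4, the neuronal β subunit of the BK potassium channel, fell by 0.90 (SE 0.05), and 1700058G18Rik, which overlaps it, by 0.83 (SE 0.06). Crtac1, a secreted protein of neurons and cartilage, was at -0.82 ± 0.07, Atp11b, a phospholipid flippase, at -0.81 ± 0.08, Gpcpd1, a glycerophosphocholine phosphodiesterase, at -0.68 ± 0.06, and Hs3st4, a heparan sulfate sulfotransferase, at -0.62 ± 0.07. All of these falls were stable to omission. Dgkg, a diacylglycerol kinase that overlaps Gm15651, fell from 41.2, 54.9 and 48.9 to 28.5, 28.5 and 31.3 FPKM and kept its call in 4 of 6 omissions.

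**Figure D3:**
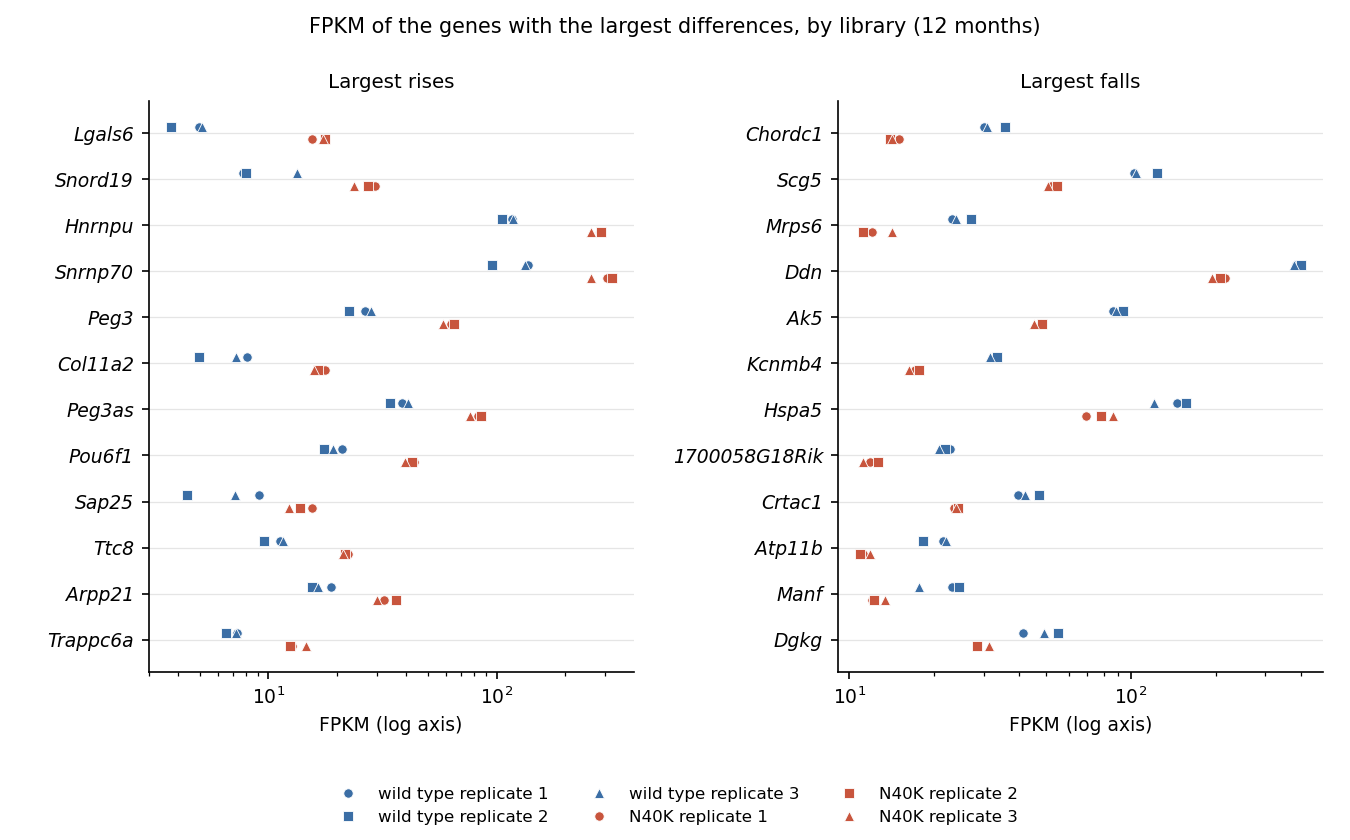
FPKM (log axis) of the 12 genes with the largest rises and the 12 with the largest falls among called genes with a mean of at least 10 FPKM, in each library at 12 months, wild type in blue and N40K in red. No gene's groups overlap, and Lgals6 and Chordc1 head the panels with differences of 1.68 and -1.11 (log2).

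Chaperones of the endoplasmic reticulum (ER) formed the list with the largest share of falls. These proteins fold secreted and membrane proteins, and their genes are induced together by the unfolded protein response, in which the sensor IRE1 (Ern1) splices Xbp1 mRNA. Of 39 members tested 14 fell (35.9%) and 1 rose (2.56%), against 4.4% and 6.91% of all genes. The list median was -0.13, with 32 members below 0. The unfolded protein response acts through the ER stress element in promoters, whose letters CCAAT and, after 9 bases of any kind, CCACG were searched on both strands from 250 bases before to 50 after the gene start. RefSeq promoters (GRCm38.p6) matched 34 members, and 9 of them held the element (26.5%), against 17 of 10512 tested genes with a promoter (0.162%). Here and for the elements below, the tested genes include the members of the list. Of the 13 called members with a promoter 5 held it. The stretches of 4 of these are shown 5′ to 3′ on the gene's strand, because these genes fell together, with the fixed letters of the element in capitals.
Hspa5, chr2:34772013-34772055, plus strand: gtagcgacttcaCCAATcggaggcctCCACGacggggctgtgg
Calr, chr8:84847063-84847105, minus strand: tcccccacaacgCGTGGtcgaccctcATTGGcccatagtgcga
Creld2, chr15:88819508-88819550, plus strand: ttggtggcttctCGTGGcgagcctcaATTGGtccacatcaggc
Pdia6, chr12:17266479-17266521, plus strand: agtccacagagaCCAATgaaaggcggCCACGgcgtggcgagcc
A match describes letters only, and not a site in use or a cause of the falls. The list was chosen for ER chaperones and the unfolded protein response, so its share of matches describes the list and not the falls. Hspa5 and Pdia6 hold the element forward and Calr and Creld2 in reverse.

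Hspa5, the main chaperone of the ER (BiP), measured 146, 156 and 121 FPKM in the wild-type libraries and 69.5, 77.9 and 86.6 FPKM in the N40K libraries. N40K replicate 3 was highest of its group and wild-type replicate 3 lowest of its group, and the groups stayed apart, with a difference of -0.84 ± 0.11 (SE, adjusted p = 0.00697). Sdf2l1, a partner of BiP, measured 12.0, 12.9 and 8.62 FPKM in the wild-type libraries and 4.22, 4.54 and 4.93 FPKM in the N40K libraries (-1.11 ± 0.13), with the same order of libraries. Fkbp2, an ER prolyl isomerase, measured 90.8, 88.0 and 83.8 FPKM in the wild-type libraries and 64.3, 68.9 and 66.7 FPKM in the N40K libraries (-0.39 ± 0.05). These 3 calls were stable to omission. Calr, the calcium-binding lectin chaperone calreticulin, fell from 251, 268 and 233 to 174, 189 and 194 FPKM, and Hsp90b1, the HSP90 of the ER, from 195, 219 and 183 to 138, 150.3 and 159.7 FPKM. The disulfide isomerase genes Pdia6 (-0.58 ± 0.10), Pdia4 (-0.65 ± 0.13) and Pdia3 (-0.38 ± 0.08) fell, as did Manf, a secreted ER stress protein (-0.73 ± 0.11), Creld2 (-0.51 ± 0.08), Herpud1, of ER-associated degradation (-0.37 ± 0.08), and the BiP partners Hyou1 (-0.29 ± 0.07) and Dnajb11 (-0.30 ± 0.07). Xbp1 measured 32.6, 32.0 and 24.4 FPKM in the wild-type libraries and 20.6, 21.4 and 22.5 FPKM in the N40K libraries (-0.44 ± 0.11), and wild-type replicate 3 lay close to the N40K values. Ern1 rose from 2.31, 1.93 and 2.49 to 3.28, 3.54 and 3.45 FPKM (0.45 ± 0.08). Without N40K replicate 1 or 2 the falls numbered 3 of 39, and without wild-type replicate 1 they numbered 7. Genes for the ER translocon and N-glycosylation, 37 in all, had 0 calls by limma and 8 with an unadjusted p under 0.05, 29 of them lay below 0, and Ostc, a subunit of the oligosaccharyltransferase, came nearest (-0.32 ± 0.09, adjusted p = 0.0575).

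**Figure D4:**
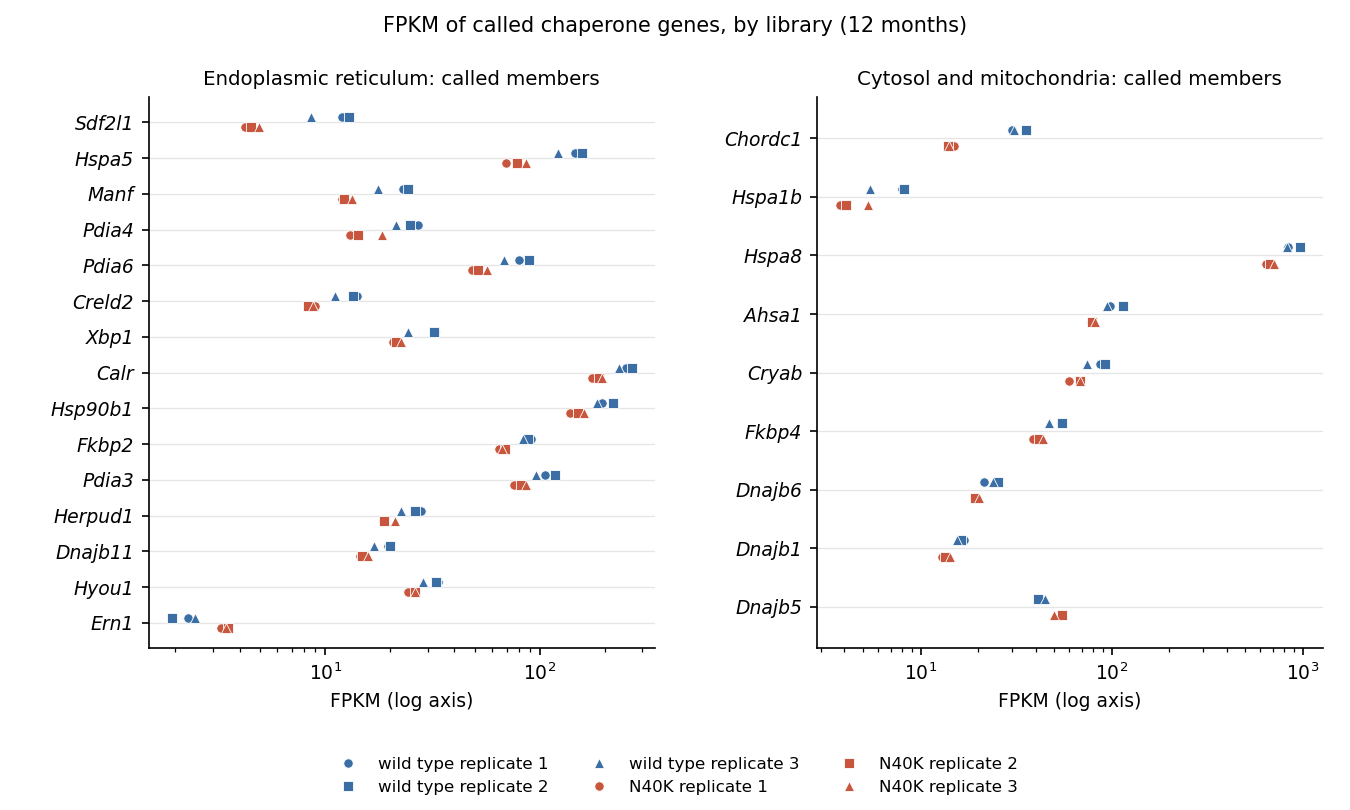
FPKM (log axis) of the called members of the endoplasmic reticulum list (left) and of the cytosolic and mitochondrial heat shock list (right) in each library at 12 months, wild type in blue and N40K in red. N40K values lie to the left of wild type for all genes drawn other than Ern1 and Dnajb5, and wild-type replicate 3 is the wild-type library nearest to N40K for most ER genes.

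Heat shock proteins of the cytosol and mitochondria keep soluble proteins folded. The 47 tested had a median of -0.14 (-0.09 without wild-type replicate 2), with 39 below 0. Of them 8 fell (17%) and 1 rose (2.13%), against 4.4% and 6.91% of all genes. Beside Chordc1 these were Ahsa1, which activates HSP90 (-0.36 ± 0.08), the HSP90 partner Fkbp4 (-0.32 ± 0.07), the small heat shock gene Cryab (-0.36 ± 0.09), which overlaps Hspb2, and the HSP40 genes Dnajb1 (-0.24 ± 0.06) and Dnajb6 (-0.25 ± 0.07). Hspa8, the constitutive HSP70, measured 831, 966 and 826 FPKM in the wild-type libraries and 642, 676 and 703 FPKM in the N40K libraries (-0.37 ± 0.08). Hspa1b, an inducible HSP70 with a near-identical copy in Hspa1a, measured 8.0, 8.22 and 5.46 FPKM in the wild-type libraries and 3.78, 4.06 and 5.29 FPKM in the N40K libraries (-0.60 ± 0.16), with N40K replicate 3 just under the lowest wild-type value. Dnajb5 rose from 42.2, 41.0 and 44.5 to 54.2, 55.1 and 49.7 FPKM (0.31 ± 0.06). Without N40K replicate 1 or 2 the list had 1 fall, Chordc1 keeping its call, without N40K replicate 3 5, and without wild-type replicate 1 3.

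The heat shock element, here the letters GAA, TTC and GAA with 2 bases of any kind between each, searched on both strands in the same window, lay in 5 of 38 members with a promoter (13.2%), against 0.609% of tested genes. Chordc1 and Dnajb6 were the called members that held it. Here too a match describes letters only, and not a cause of the falls. This list was chosen for heat shock proteins, so its share of matches describes the list and not the falls. The stretch of Dnajb6 is shown as the example that ends before the gene start, on the gene's strand with the fixed letters in capitals (RefSeq, GRCm38.p6).
Dnajb6, chr5:29735840-29735876, plus strand: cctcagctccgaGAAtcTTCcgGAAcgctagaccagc

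All 13 chaperonin and prefoldin genes were below 0, with a median of -0.12 that was -0.04 without wild-type replicate 2, and with Cct4 called (-0.30 ± 0.07). Of 49 proteasome genes 3 fell and 1 rose (median -0.11, and -0.06 without that library), with Psmd4, a ubiquitin receptor, stable in 4 of 6 omissions (-0.29 ± 0.05). Of 83 cytosolic ribosomal protein genes 81 were below 0, yet 3 were called lower and 1 higher, near or under the shares over all genes, and the median of -0.12 was -0.06 without it and -0.04 after quantile normalization. Respiratory chain genes gave similar values, with 77 of 92 below 0, 2 called lower, and a median of -0.11 that became -0.04 without that library. Of 76 mitochondrial ribosomal genes 5 fell (6.58%) and 1 rose (1.32%). Mrps6 fell most, from 23.1, 27.0 and 23.9 to 12.0, 11.1 and 14.2 FPKM (-0.94 ± 0.09), but its exons overlap those of Slc5a3, so the source of the reads is uncertain. Of 74 lysosome and autophagy genes 6 fell (8.11%, against 4.4% of all genes) and none rose, among them the proton pump gene Atp6v1g2 (-0.34 ± 0.06). Eef2k, the kinase that slows elongation, rose from 6.41, 5.26 and 6.52 to 9.20, 9.04 and 8.0 FPKM (0.47 ± 0.09), while the neuronal elongation factor Eef1a2 fell by 0.26 (SE 0.06).

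Presynaptic genes were called lower more often than higher, as were genes of high level in general. The machinery docks, fuses and refills synaptic vesicles, and of 54 members tested 7 fell (13%) and 1 rose (1.85%). All genes gave 4.4% and 6.91%, and the fifth with the highest mean FPKM 7.79% and 2.66%. The list median of -0.03 was 0.003 after quantile normalization. Vamp1, a vesicle SNARE of fast-firing neurons, measured 39.4, 35.3 and 33.0 FPKM in the wild-type libraries and 24.5, 24.2 and 25.0 FPKM in the N40K libraries (-0.53 ± 0.07), a fall stable to omission. Synpr, the vesicle protein synaptoporin, measured 47.8, 50.7 and 46.1 FPKM in the wild-type libraries and 37.4, 36.6 and 36.1 FPKM in the N40K libraries (-0.38 ± 0.05). Slc17a7, the vesicular glutamate transporter of pyramidal and granule cells, measured 373, 373 and 366 FPKM in the wild-type libraries and 299, 316 and 282 FPKM in the N40K libraries (-0.31 ± 0.06). In each the groups were apart, and in Slc17a7 N40K replicate 3 was lowest. Amph (-0.29 ± 0.05), of endocytosis, Syn1 (-0.28 ± 0.05), which tethers vesicles and overlaps Araf, and Nsf (-0.23 ± 0.05) and Napb (-0.29 ± 0.06), which take SNARE complexes apart, fell as well. Rims2, of the active zone, rose by 0.21 ± 0.05. Falls numbered 2, 1 and 3 without N40K replicates 1, 2 and 3, and 4 without wild-type replicate 1 or 3. The summed level of 23 pyramidal markers was lower in N40K too, 1763, 1863 and 1777 FPKM against 1628, 1575 and 1530 FPKM, and its part in these falls was not tested.

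Dense-core granules carry neuropeptides, and 4 of 17 of their genes fell (23.5%) while 1 rose (5.88%), against 4.4% and 6.91% of all genes. Beside Scg5 these were Pcsk2 (-0.19 ± 0.04), the convertase PC2 that Scg5 serves, Chga (-0.21 ± 0.05) and Ptprn2 (-0.25 ± 0.05). Pcsk2, which overlaps antisense genes, measured 55.9, 54.0 and 53.4 FPKM in the wild-type libraries and 47.1, 48.2 and 47.5 FPKM in the N40K libraries. Pam, which amidates peptides, rose from 48.0, 47.4 and 46.7 to 54.0, 53 and 54.1 FPKM (0.18 ± 0.04). The calls of these 4 genes, unlike that of Scg5, held in 1 or 2 of the 6 omissions.

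Postsynaptic scaffold genes had 4 falls (10.3%) and 1 rise (2.56%) among 39, against 4.4% and 6.91% of all genes. Dendrin aside, Ppp1r9b, which encodes the spine protein spinophilin, fell from 204, 227 and 207 to 159, 159 and 157 FPKM (-0.42 ± 0.06), and Dlgap3 (-0.33 ± 0.07) and Dlgap1 (-0.20 ± 0.05), which link PSD-95 to Shank, fell less. Lrrc7 (densin), a partner of CaMKII, rose by 0.32 ± 0.06. Of 26 AMPA and kainate receptor genes and partners, 2 rose (7.69%) and 3 fell (11.5%). Shisa7, which encodes an auxiliary receptor subunit, rose from 31.3, 27.6 and 32.1 to 46.8, 46.7 and 42.7 FPKM (0.57 ± 0.07), stable to omission, and Pick1, which internalises AMPA receptors, by 0.38 ± 0.06. The auxiliary subunit gene Cacng7 (-0.24 ± 0.05), the secreted AMPA receptor organiser Nptx1 (-0.26 ± 0.05) and Olfm1 (-0.25 ± 0.05) fell. Of 13 NMDA and metabotropic receptor genes 1 was called, Grin3a (-0.24 ± 0.06). Grin2a measured 10.3, 11.7 and 14 FPKM in the wild-type libraries and 16.2, 14.6 and 15.1 FPKM in the N40K libraries, a difference of 0.34 ± 0.10 that missed the threshold (adjusted p = 0.0728).

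At inhibitory synapses 3 of 25 genes fell (12%) and 1 rose (4%), against 4.4% and 6.91% of all genes. Gabra2, a GABA-A receptor α subunit, measured 19.9, 23.6 and 23.0 FPKM in the wild-type libraries and 16.1, 14.3 and 14.8 FPKM in the N40K libraries (-0.52 ± 0.08), and its relative Gabra3 measured 17, 20.4 and 18.2 FPKM in the wild-type libraries and 10.6, 13.2 and 11.9 FPKM in the N40K libraries (-0.60 ± 0.09). Both fell in all 3 N40K libraries, Gabra3 in a way stable to omission. Gphn, the gephyrin scaffold that holds these receptors, fell by 0.21 (SE 0.04), and Nlgn2, the adhesion protein of inhibitory synapses, rose by 0.24 ± 0.05. Of 20 interneuron and neuropeptide genes 0 were called by limma, and 6 had an unadjusted p under 0.05. Somatostatin (Sst) measured 250 to 297 FPKM in wild type and 221 to 242 FPKM in N40K, and Pvalb 26.5 to 33.2 FPKM in wild type and the same range in N40K.

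Among ion channel genes Kcnmb4 fell while Kcnma1, the pore subunit of the same BK channel, rose. Kcnma1 measured 11.9, 12.2 and 13.2 FPKM in the wild-type libraries and 21.8, 20.6 and 20.3 FPKM in the N40K libraries (0.71 ± 0.06), and Kcnmb4 33.2, 33.4 and 31.5 FPKM in the wild-type libraries and 17.1, 17.7 and 16.3 FPKM in the N40K libraries (-0.90 ± 0.05). Both calls were stable to omission, although both genes overlap noncoding genes. Of 55 potassium channel genes 3 rose and 3 fell (5.45% each way), near the shares over all genes. The others were the leak channel Kcnk9 (0.50 ± 0.09) and the G-protein gated Kcnj9 (0.31 ± 0.08), higher, and Kcnab2 (-0.32 ± 0.06) and Kcnip2 (-0.22 ± 0.05), auxiliary subunits, lower. Of 29 sodium, calcium and HCN channel genes 2 rose and 2 fell (6.9% each way). Cacna1g, a T-type calcium channel, rose from 7.29, 6.06 and 7.90 to 11.6, 11.6 and 11.0 FPKM (0.63 ± 0.09), and Cacna1b, the N-type channel, by 0.35 ± 0.08. Scn1a, the sodium channel of fast-spiking interneurons, fell from 14.1, 13.3 and 13.8 to 10.7, 10.5 and 10.3 FPKM (-0.35 ± 0.05), and Cacnb3 by 0.24 (SE 0.04).

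Calcium signalling genes fell in 7 cases (14%) and rose in 1 (2%) of 50, against 4.4% and 6.91% of all genes. Their median of -0.03 was 0.02 after quantile normalization. Ncald and Hpcal1, neuronal calcium sensors, were at -0.36 ± 0.07 and -0.49 ± 0.11, Rcan1 and Ppp3cb, regulator and catalytic subunit of calcineurin, at -0.31 ± 0.06 and -0.29 ± 0.07, and the kinase genes Camk1d and Camkv at -0.26 ± 0.06 and -0.22 ± 0.06. Plcb1 was at -0.19 ± 0.05, and Camk1g rose by 0.32 ± 0.07. Of 38 genes of cyclic nucleotide and G-protein signalling 3 fell, led by Gng7, a G-protein γ subunit, which measured 43.9, 46.1 and 43.2 FPKM in the wild-type libraries and 33.3, 33.5 and 31.3 FPKM in the N40K libraries (-0.43 ± 0.05) and was stable to omission. Among receptors for neuromodulators 3 of 39 fell, the adrenergic genes Adra1d (-0.41 ± 0.07) and Adra2c (-0.36 ± 0.07) and the adenosine receptor Adora1 (-0.23 ± 0.04), and 2 rose, Oprd1 (0.30 ± 0.07) and Chrnb2 (0.20 ± 0.05). Of 30 activity-induced genes Fosb (-0.44 ± 0.08), Fosl2 (-0.27 ± 0.06) and Jun (-0.27 ± 0.06) fell, and 24 were below 0 with a median of -0.14, which was -0.08 without wild-type replicate 2 or 3 or N40K replicate 2. All 3 belong to the AP-1 transcription factors.

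Of 66 tubulin, kinesin, dynein and neurofilament genes, which build and travel along the cytoskeleton, 8 rose (12.1%) and 5 fell (7.58%). All genes gave 6.91% and 4.4%. The axonal transport motor Kif1a measured 176, 141 and 171 FPKM in the wild-type libraries and 240.2, 249 and 227 FPKM in the N40K libraries (0.56 ± 0.09), and Kif1b (0.40 ± 0.08), Kif5c (0.20 ± 0.05) and Kif21b (0.51 ± 0.13) rose too. Kif20a and Kif22, known from mitosis and low here, rose from 3.43, 3.09 and 3.09 to 5.42, 5.37 and 5.50 FPKM and from 1.88, 1.23 and 1.99 to 3.39, 3.12 and 2.49 FPKM, the former overlapping Cdc23 and stable to omission. Tubb6 rose by 0.62 ± 0.09 and Tubg2 by 0.20 ± 0.05. The neurofilament genes Nefl (-0.27 ± 0.07) and Nefm (-0.36 ± 0.06), which overlap each other in the annotation, fell, as did Tuba1b (-0.27 ± 0.06) and the dynein genes Dync1i1 (-0.29 ± 0.06) and Dync1li1 (-0.17 ± 0.04). Of 34 giant linker and scaffold genes 31 were above 0 with a median of 0.19, which was 0.10 without wild-type replicate 2, and 1 was called, the giant cadherin Fat3 (0.46 ± 0.09). In the matrix, Smoc2, a secreted calcium-binding protein, measured 13, 12.8 and 12.4 FPKM in the wild-type libraries and 5.72, 4.83 and 4.36 FPKM in the N40K libraries (-1.21 ± 0.08), stable to omission, and Hapln4, a link protein of perineuronal nets, fell by 0.32 (SE 0.05), among 52 genes with 3 falls. Low-level Epyc was the other fall (-1.01 ± 0.14), and it reached 1 FPKM in wild-type libraries only, so it entered the test through them. Its fall adds no support to the count, and the 3 falls were 5.77% of the list. Of 45 adhesion genes the protocadherins Pcdh8 (-0.33 ± 0.06) and Pcdh17 (-0.29 ± 0.05) fell with Cntnap1, of the paranode (-0.38 ± 0.09), and Cdh10 rose (0.24 ± 0.06). Of 54 axon guidance genes 2 rose (3.7%) and 3 fell (5.56%), each by less than 0.4.

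Chromatin modifier genes were called mostly higher. These enzymes write, erase or read marks on histones and DNA. Of 71 tested 10 rose (14.1%) and 1 fell (1.41%), against 6.91% and 4.4% of all genes. The called members other than Chd5 lay at low and middle levels, where rises were commoner and falls rarer in general. A group of tested genes with means of 3.07 to 9.275 FPKM gave 9.19% higher and 2.1% lower. A group with means of 6.8 to 16.2 FPKM gave 8.05% and 3.88%. The median was 0.14 (0.08 without wild-type replicate 2), with 54 above 0. Tet2, which oxidises methylated cytosine, measured 3.27, 2.86 and 3.61 FPKM in the wild-type libraries and 6.59, 6.22 and 5.34 FPKM in the N40K libraries (0.73 ± 0.09), stable to omission. Tet3 (0.36 ± 0.07), the methyltransferase genes Mll1 (0.44 ± 0.11), Mll2 (0.57 ± 0.13) and Setd1b (0.31 ± 0.08), the demethylase genes Kdm2a (0.23 ± 0.06), Kdm3a (0.29 ± 0.05) and Kdm3b (0.27 ± 0.06), the remodeller gene Chd5 (0.31 ± 0.07) and Hdac9 (0.26 ± 0.06) rose. Hdac8 fell by 0.29 (SE 0.05). Mll2 measured 4.95, 3.27 and 4.73 FPKM in the wild-type libraries and 7.50, 6.45 and 6.46 FPKM in the N40K libraries, with wild-type replicate 2 lowest of all. The count of rises depended on single libraries, at 1 without N40K replicate 1 or 2, 4 without N40K replicate 3 and 3 without wild-type replicate 1, and it was 2 with no expression filter.

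Zinc finger (Zfp) genes, many of them repressors of the KRAB family, held 28 rises (9.18%) and 4 falls (1.31%) among 305 tested. All genes gave 6.91% and 4.4%, and the fifth of genes with the lowest mean FPKM 8.6% and 1.92%, close to the Zfp shares. The Zfp median of 0.07 was 0.003 after quantile normalization. Zfp930 measured 3.79, 4.28 and 3.92 FPKM in the wild-type libraries and 6.78, 7.20 and 6.98 FPKM in the N40K libraries (0.68 ± 0.06), Zfp948 measured 3.83, 4.08 and 4.27 FPKM in the wild-type libraries and 6.65, 6.60 and 5.87 FPKM in the N40K libraries (0.54 ± 0.07) and Zfp661 measured 2.44, 2.57 and 2.67 FPKM in the wild-type libraries and 4.23, 4.36 and 3.88 FPKM in the N40K libraries (0.53 ± 0.06). These 3 were stable to omission, and each N40K library exceeded each wild-type library. Quantile normalization left 14 rises, and omission left 4 and 3 without N40K replicates 1 and 2, 14 without wild-type replicate 1 and 15 without wild-type replicate 3. Replication-dependent histones have mRNAs that mostly lack poly-A tails, so that these libraries measure a part of them. Of 66 members 48 were under the filter. Of the 18 tested 6 rose (33.3%) and none fell, with a median of 0.19 that was 0.10 without N40K replicate 3. Hist1h4i measured 1.91, 2.14 and 2.42 FPKM in the wild-type libraries and 4.36, 4.87 and 5.70 FPKM in the N40K libraries (0.92 ± 0.10) and Hist1h2bg 2.47, 2.53 and 2.26 FPKM in the wild-type libraries and 3.92, 3.89 and 4.23 FPKM in the N40K libraries (0.55 ± 0.06). N40K replicate 3 was highest for both, and both calls were stable to omission. Hist1h4k, Hist1h3d, Hist1h1c and Hist1h2ac rose by 0.50 to 0.77, and several of these genes are near-identical copies. Hist1h3d and Hist1h2ac reached 1 FPKM in N40K libraries only. They entered the test through the group in which they were higher, so their rises add no support to the count. Of 10 replacement histone genes 1 was called, H2afj (-0.38 ± 0.06). Of 61 RNA polymerase II and Mediator genes 3 rose (4.92%) and 1 fell (1.64%).

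MicroRNA processing genes split. Drosha, which cuts primary transcripts in the nucleus, fell from 30.5, 28.9 and 30.5 to 19.5, 20.7 and 19.8 FPKM (-0.56 ± 0.05), stable to omission, though it overlaps Gm47288. Dicer1, which cuts the hairpin in the cytosol, rose from 7.70, 6.46 and 7.42 to 11.0, 10.4 and 10.1 FPKM (0.49 ± 0.07), and Ago2 (0.39 ± 0.07) and Ago3 (0.43 ± 0.08), which carry mature microRNAs, rose, while Prkra, a Dicer partner, fell (-0.33 ± 0.07). These are 5 of 13 genes tested, 3 higher (23.1%) and 2 lower (15.4%). Of 190 microRNA loci 24 rose (12.6%) and 7 fell (3.68%), against 6.91% and 4.4% of all genes. Their median of 0.19 was 0.02 once each library's trend with transcript length was removed and 0.09 without wild-type replicate 2. Poly-A reads over a hairpin come from its primary or host transcript and do not measure the mature microRNA. Of the 31 called loci 28 had a mature sequence in RefSeq (GRCm38.p6), and 3 seeds were shared by several loci. The 2 loci with the largest rises, those that share a seed, and the locus with the largest fall are shown, with the seed (bases 2 to 8) in capitals.
mmu-miR-125a-5p (Mir125a): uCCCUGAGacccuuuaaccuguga
mmu-miR-199a-5p (Mir199a-1): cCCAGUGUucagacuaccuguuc
mmu-let-7e-5p (Mirlet7e): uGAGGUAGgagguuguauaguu
mmu-let-7f-5p (Mirlet7f-1): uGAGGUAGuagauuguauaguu
mmu-miR-9-5p (Mir9-1 and Mir9-2): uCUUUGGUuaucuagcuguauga
mmu-miR-135a-5p (Mir135a-1): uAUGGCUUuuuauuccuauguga
The let-7 pair shares the seed GAGGUAG, and the miR-9 loci share their whole mature sequences.

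Mir125a measured 2.97, 1.99 and 2.12 FPKM in the wild-type libraries and 6.88, 9.12 and 8.55 FPKM in the N40K libraries (1.45 ± 0.13), and Mirlet7e, which lies on the same strand of chromosome 17 just before it, measured 1.5, 0.97 and 1.88 FPKM in the wild-type libraries and 4.28, 4.05 and 2.96 FPKM in the N40K libraries (0.96 ± 0.16). The let-7e and miR-125a sequences lie at chr17:17830366-17830387 and chr17:17830817-17830840, plus strand. Mirlet7f-1 measured 1.57, 2.28 and 2.43 FPKM in the wild-type libraries and 4.99, 5.23 and 4.47 FPKM in the N40K libraries (0.94 ± 0.12). In these loci all N40K libraries stood above all wild-type libraries, and Mir125a and Mirlet7f-1 were stable to omission, as were Mir199a-1 and Mir135a-1. Mir199a-1 rose from 0.444, 0.644 and 1.18 to 4.01, 3.48 and 3.28 FPKM, Mir9-1 from 2.44, 1.77 and 2.55 to 4.73, 6.10 and 4.13 FPKM and Mir9-2 from 17, 22.2 and 15.9 to 31.5, 33.5 and 28.3 FPKM. Of the wild-type libraries 1 reached 1 FPKM for Mir199a-1, so its place among the tested loci rests on the N40K libraries. Its rise therefore adds no support to the count. Mir135a-1, which overlaps exons of Glyctk, fell from 3.97, 4.01 and 3.89 to 1.82, 1.60 and 1.70 FPKM (-0.87 ± 0.06). The rises numbered 7 and 6 without N40K replicates 1 and 2, and 8 with a mean of at least 5 FPKM required. Of 79 small nucleolar RNA loci 9 rose (11.4%) and 2 fell (2.53%), against 6.91% and 4.4% of all genes. Their median of 0.11 turned to -0.05 once the length trend was removed. Snord19 measured 7.76, 7.93 and 13.4 FPKM in the wild-type libraries and 29.5, 27.3 and 23.8 FPKM in the N40K libraries (1.42 ± 0.19), and Snord53 5.48, 2.32 and 4.85 FPKM in the wild-type libraries and 12.4, 14.7 and 10.6 FPKM in the N40K libraries (1.42 ± 0.24). Wild-type values of both were uneven, but no N40K value fell among them, and the call of Snord19 was stable to omission. Snora31 rose by 1.00 ± 0.13 and Snord82 fell by 0.40 (SE 0.08). Of 25 long noncoding RNAs, Rian (0.34 ± 0.06), which hosts small RNAs, and Jpx (0.55 ± 0.09) and Ftx (0.53 ± 0.11), of the X inactivation centre, rose, and Snhg10 fell (-0.30 ± 0.07). The rises and the fall were 12% and 4% of that list.

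Clock genes rose in 6 of 22 cases (27.3%, against 6.91% of all genes) and fell in none. Their median was 0.17 (0.12 without wild-type replicate 2). The clock is a feedback loop in which the activators Arntl (BMAL1) and Clock drive repressors and output genes. Arntl measured 11.9, 12.0 and 11.8 FPKM in the wild-type libraries and 13.7, 13.6 and 13.7 FPKM in the N40K libraries (0.19 ± 0.04) and Clock 10.6, 10.9 and 11.3 FPKM in the wild-type libraries and 12.6, 12.3 and 13 FPKM in the N40K libraries (0.19 ± 0.05). Their targets Dbp (0.39 ± 0.06), Nr1d1 (0.20 ± 0.05) and Cry1 (0.28 ± 0.06) and the relative Arntl2 (0.49 ± 0.12) also rose. Dbp, an output gene that overlaps Sphk2, measured 20.8, 19.0 and 20.3 FPKM in the wild-type libraries and 27.3, 28.2 and 24.5 FPKM in the N40K libraries. The labels give no hour of dissection. Dbp kept its call in 4 of 6 omissions, and the other 5 in 1 or none.

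Of 33 cholesterol genes Tm7sf2 (0.53 ± 0.09), Lss (0.38 ± 0.08) and Sqle (0.17 ± 0.04), enzymes of the sterol pathway, rose (9.09%, against 6.91% of all genes) and none fell. Of 28 genes around the citric acid cycle Dlat (-0.36 ± 0.06), a subunit of pyruvate dehydrogenase, and Pdp1 (-0.25 ± 0.05), the phosphatase that activates it, fell, and Ogdhl rose (0.32 ± 0.07). Pfkfb2, which makes an activator of glycolysis, rose (0.44 ± 0.07), and Pfkl fell (-0.19 ± 0.04), among 24 glycolytic genes. The receptor genes Tfrc and Tfr2, which take up iron, rose among 22 iron genes (9.09%). Tfrc, the transferrin receptor, measured 18.7, 17.5 and 18.5 FPKM in the wild-type libraries and 26.5, 26.8 and 25.3 FPKM in the N40K libraries (0.50 ± 0.05), stable to omission, and low-level Tfr2 measured 3.05, 2.42 and 3.03 FPKM in the wild-type libraries and 4.48, 4.22 and 3.82 FPKM in the N40K libraries (0.44 ± 0.09). Of 37 antioxidant genes 1 was called, Gss, of glutathione synthesis (0.27 ± 0.05), and of 17 glucocorticoid-responsive genes 1, Tsc22d3 (-0.36 ± 0.07).

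Interferon response genes were called higher. Interferons signal through transcription factors that include STAT2 and IRF9 to a set of antiviral genes. Of 39 tested 9 rose (23.1%, against 6.91% of all genes) and none fell, with a median of 0.32 and 35 above 0. The interferon-stimulated response element acts in their promoters. Its core letters, GAAA and GAAA with 2 bases of any kind between them, searched on both strands in the same RefSeq windows, lay in 16 of 34 members with a promoter (47.1%) against 355 of 10512 tested genes (3.38%). Of the 9 called members 2, Gbp3 and Stat2, held it, a smaller share than over the list. Their stretches are shown on the gene's strand with the fixed letters in capitals, as the members that both rose and hold the core.
Gbp3, chr3:142559987-142560026, plus strand: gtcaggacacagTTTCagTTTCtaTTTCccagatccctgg
Stat2, chr10:128270264-128270297, plus strand: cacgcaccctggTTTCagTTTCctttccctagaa
Both read in reverse, and Gbp3 holds 2 overlapping copies. As for the ER genes, a match describes letters only, and not a site in use or a cause of the rises. The list was chosen for interferon response, so its share of matches describes the list and not the rises.

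Of the signalling members Irf9, which overlaps Rnf31, measured 3.19, 2.99 and 3.86 FPKM in the wild-type libraries and 6.01, 5.68 and 6.38 FPKM in the N40K libraries (0.70 ± 0.09), and its rise was stable to omission. Stat2 measured 7.25, 5.78 and 7.26 FPKM in the wild-type libraries and 8.59, 8.82 and 8.96 FPKM in the N40K libraries (0.34 ± 0.08). Irf7, which amplifies the response, measured 0.785, 0.619 and 1.06 FPKM in the wild-type libraries and 1.42, 2.62 and 2.98 FPKM in the N40K libraries (0.85 ± 0.19), and Oasl2, an antiviral gene, 0.990, 0.769 and 1.11 FPKM in the wild-type libraries and 1.60, 2.52 and 3.01 FPKM in the N40K libraries (0.77 ± 0.16). In Irf7 and Oasl2 N40K replicate 1 was nearest to wild type and N40K replicate 3 was highest. In both, 1 wild-type library reached 1 FPKM, so their place among the tested genes rests on the N40K libraries. The rises of Irf7 and Oasl2 therefore add no support to the count. Gbp3 (0.42 ± 0.09), Herc6 (0.38 ± 0.08), Uba7 (0.34 ± 0.08), Sp100 (0.36 ± 0.09) and Parp12 (0.33 ± 0.08), all under 6 FPKM, rose too. N40K replicate 3 was also the library with the highest choroid plexus and meningeal sums. Without it the median was 0.19 and 1 member was called, and the rises numbered 4 and 1 without N40K replicates 1 and 2, and 2, 4 and 1 without wild-type replicates 1, 2 and 3. With all 12 libraries in the fit they numbered 16. The summed level of 18 homeostatic microglia markers was 212 to 237 FPKM in wild type and 227 to 231 FPKM in N40K, so the groups overlapped.

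Histocompatibility genes present peptides to T cells, and many answer to interferon. Of 31 tested 5 rose (16.1%, against 6.91% of all genes) and none fell. The list median of 0.21 was 0.14 without N40K replicate 2. H2-L measured 44.0, 41.9 and 38.6 FPKM in the wild-type libraries and 50.5, 54.7 and 57.3 FPKM in the N40K libraries (0.38 ± 0.07), and H2-D1 16.7, 15.1 and 13.8 FPKM in the wild-type libraries and 17.8, 20.2 and 20.8 FPKM in the N40K libraries (0.35 ± 0.08), but these are near-identical copies whose reads may be split. H2-Q4 (0.51 ± 0.10), H2-M3 (0.40 ± 0.08) and H2-M10.2 (0.45 ± 0.10) rose at low levels. The rises numbered 1, 0 and 2 without N40K replicates 1, 2 and 3, and 2 without wild-type replicate 3. Of 17 complement genes 3 rose (17.6%). Cfb, of the alternative pathway, measured 2.23, 1.74 and 2.34 FPKM in the wild-type libraries and 4.28, 4.44 and 3.76 FPKM in the N40K libraries (0.74 ± 0.09), stable to omission, C4b measured 21.3, 21.6 and 23.3 FPKM in the wild-type libraries and 26.8, 25.8 and 28.9 FPKM in the N40K libraries (0.29 ± 0.06), and C2 rose by 0.77 ± 0.15, with Cfb and C2 overlapping a readthrough gene. Among 27 cytokine and NF-κB genes Cx3cl1 (0.18 ± 0.05), the neuronal ligand of a microglial receptor, and Il1r1 (0.40 ± 0.10) rose.

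**Figure D5:**
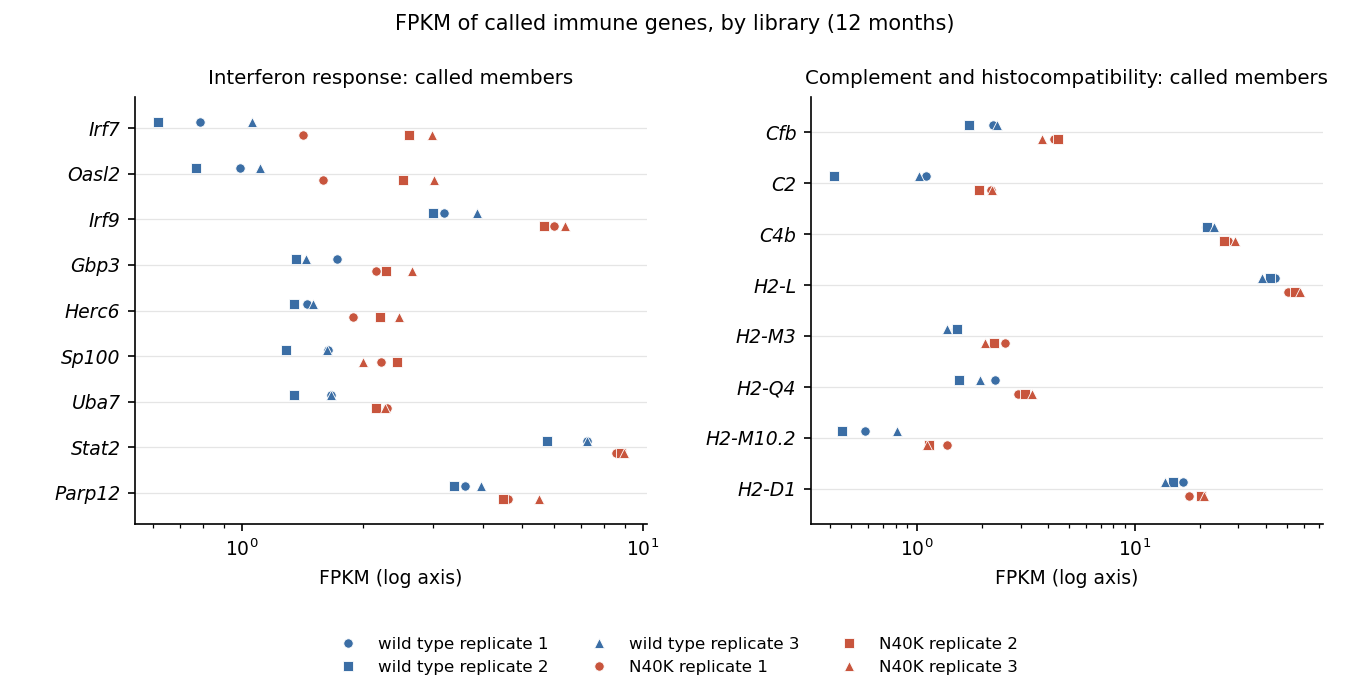
FPKM (log axis) of the called interferon response genes (left) and of the called complement and histocompatibility genes (right) in each library at 12 months, wild type in blue and N40K in red. All N40K values lie to the right of wild type, and N40K replicate 3 is highest for Irf7, Oasl2 and Irf9, at 2.98, 3.01 and 6.38 FPKM.

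Microglial and astrocyte genes showed few calls. Of 17 homeostatic microglia genes 1 was called, Cd33 (0.42 ± 0.10), at 1.84, 1.63 and 2.23 FPKM in wild type and 2.99, 3.13 and 2.49 FPKM in N40K, and of 19 disease-associated microglia genes 0 were called by limma and 2 had an unadjusted p under 0.05. Of 26 astrocyte markers 0 were called by limma and 2 had an unadjusted p under 0.05, and Gfap measured 71.9 to 92.0 FPKM in wild type and 81.7 to 92.9 FPKM in N40K. Of 24 reactive astrocyte genes 1 was called, H2-D1.

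All 34 oligodendrocyte genes tested were below 0, with a median of -0.14, and 4 of them fell (11.8%, against 4.4% of all genes). Mobp, a myelin protein, measured 80.8, 87.8 and 84.9 FPKM in the wild-type libraries and 69.4, 71.8 and 71.2 FPKM in the N40K libraries (-0.25 ± 0.05), and Ugt8a, which makes myelin lipids, measured 15.9, 14.7 and 14.6 FPKM in the wild-type libraries and 12.9, 12.2 and 12.9 FPKM in the N40K libraries (-0.23 ± 0.05). In both the groups stayed apart. Cryab and Qdpr (-0.23 ± 0.06) were the other falls. Enpp2, a member of that list that choroid plexus also expresses, measured 324, 249 and 489 FPKM in the wild-type libraries and 58.8, 93.3 and 644 FPKM in the N40K libraries and followed the choroid plexus sums. Of 17 precursor genes the transcription factors Olig1 and Olig2, which specify the lineage, fell (11.8%). Olig2 measured 11.0, 9.05 and 8.34 FPKM in the wild-type libraries and 5.65, 6.08 and 5.98 FPKM in the N40K libraries (-0.59 ± 0.09) and Olig1 33.7, 37.6 and 30.7 FPKM in the wild-type libraries and 25.2, 27.7 and 26.9 FPKM in the N40K libraries (-0.34 ± 0.08), while the precursor markers Pdgfra and Cspg4 were not called and Pdgfra measured 8.59 to 9.14 FPKM in wild type and 8.85 to 9.65 FPKM in N40K.

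Of 34 endothelial markers 4 rose (11.8%) and 1 fell (2.94%), against 6.91% and 4.4% of all genes. The list median of 0.17 was 0.11 without wild-type replicate 2. Slco1a4, a transporter of the blood-brain barrier, measured 9.72, 9.94 and 11.6 FPKM in the wild-type libraries and 17.7, 15.3 and 16.8 FPKM in the N40K libraries (0.63 ± 0.08), stable to omission. Abcb1a (0.35 ± 0.08), the efflux pump of the barrier, and the receptor genes Flt1 (0.32 ± 0.07) and Tie1 (0.33 ± 0.08) rose, and Ramp2, a coreceptor for adrenomedullin, fell from 17, 17.9 and 17.1 to 14.4, 14.4 and 14.9 FPKM (-0.24 ± 0.05). All 15 mural cell markers were above 0 with a median of 0.23, which was 0.17 without wild-type replicate 2 and 0.19 without N40K replicate 3. Of these markers 0 were called by limma, with 4 at an unadjusted p under 0.05. The haemoglobin genes Hba-a1 (-0.37 ± 0.10) and Hba-a2 (-0.42 ± 0.10), near-identical copies that mark blood left in the tissue, fell.

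Markers of the principal neurons were called lower more often than genes in all, on 3 falls in each list. Of 23 pyramidal markers 3 fell (13%, against 4.4% of all genes), Lmo4 (-0.25 ± 0.06) and, also counted in lists above, Slc17a7 and Nptx1. Wfs1, a marker of CA1 that encodes an ER membrane protein, rose from 36.9, 26.0 and 29.6 to 51.9, 44.6 and 42.1 FPKM (0.58 ± 0.13). In this list 10 members lay above 0, and the median of -0.13 was -0.007 without N40K replicate 3. Of 16 granule cell markers 6 lay above 0 and 3 fell (18.8%, against 4.4% of all genes). These were the secreted synaptic organisers C1ql2 (-0.26 ± 0.06) and C1ql3 (-0.29 ± 0.05) and the kinase Plk5. Plk5 measured 15, 9.0 and 10.1 FPKM in the wild-type libraries and 6.63, 6.73 and 6.43 FPKM in the N40K libraries (-0.67 ± 0.16), with wild-type replicate 1 above the rest. Among 17 neurogenesis genes Dcx, which marks immature neurons, rose from 1.98, 1.62 and 2.06 to 3.27, 3.62 and 2.63 FPKM (0.53 ± 0.11), Hes5 rose by 0.43 ± 0.08, and Marcksl1 fell by 0.39 (SE 0.06).

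Of genes linked to Alzheimer's disease, Sorl1, a sorting receptor of the amyloid precursor protein, measured 34.7, 34.7 and 39.5 FPKM in the wild-type libraries and 47.8, 43.0 and 43.7 FPKM in the N40K libraries (0.30 ± 0.07), and was the 1 of 25 precursor and secretase genes that was called. Among 21 risk genes Sorl1, Cd2ap (0.46 ± 0.11) and Cd33 rose (14.3%, against 6.91% of all genes) and none fell. Of 33 genes of tau, its kinases and phosphatases, the tau kinase genes Ttbk1 (-0.34 ± 0.05) and Mapk10 (-0.23 ± 0.05) fell. Ttbk1, which overlaps Gm47119, measured 13.2, 13 and 13.6 FPKM in the wild-type libraries and 10.1, 10.2 and 10.5 FPKM in the N40K libraries. Of 31 p53 target and cell death genes 0 were called by limma and 7 had an unadjusted p under 0.05, and Casp1 came nearest, at 3.17, 1.53 and 1.80 FPKM in wild type and 3.88, 4.08 and 3.60 FPKM in N40K (0.65 ± 0.17, adjusted p = 0.0511).

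The 3-month libraries give each value an earlier counterpart, from other libraries. Chordc1 stood at -0.66 ± 0.06 at 3 months and -1.11 ± 0.07 at 12, Drosha at -0.55 ± 0.04 and -0.56 ± 0.05, and Gabra3 at -0.63 ± 0.16 and -0.60 ± 0.09. Hspa5 stood at -0.07 ± 0.12 and -0.84 ± 0.11, Sdf2l1 at 0.05 ± 0.13 and -1.11 ± 0.13, and Slco1a4 at -0.02 ± 0.08 and 0.63 ± 0.08. Tests of the difference between the ages gave an adjusted p by limma of 0.132, 0.0580 and 0.0869 for the last 3, so a change of effect with age was not called for them. The median of the ER list was -0.007 at 3 months, and that of the interferon list -0.15. Over all 13945 genes tested 9 differed between the ages (0.0645%), and 1997 had an unadjusted p under 0.05.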

How the data were processed

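Poly-A RNA of mouse hippocampus was sequenced from 12 libraries, 3 for each genotype at 3 and at 12 months. The values are FPKM per gene entry in 1 table that the authors deposited. CASAVA, STAR and BWA and the genome build mm9 were used upstream, per the submitters' processing notes. The counting tool, annotation and use of strand are not given in the sources used here. Joined gene names (128 entries) were kept as deposited.

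Genes that reached 1 FPKM in 3 or more of the 6 libraries at 12 months were tested on log2(FPKM + 1) with limma 3.58.1 in R 4.3.3 (empirical Bayes with a mean trend, two-sided, Benjamini-Hochberg over 13542 genes, threshold 0.05). The difference in genotype effect between ages was tested in the same way on all 12 libraries. The code was run on simulated data with independent noise at the fitted spread and without the uneven marker sums of the real libraries. It recovered 91 of 99 genes changed by 0.5 and 93 of 95 changed by 1 (log2). It also made 16 false calls, 8% of its calls, above the threshold of 0.05. Python 3.11.15, pandas 2.3.3, numpy 2.4.6 and matplotlib 3.10.9 were used for the rest. Depth was estimated from what 1 read is worth in FPKM over 1153 lowly expressed receptor genes, whose values came out as whole reads within 0.02 of a read in 55.7% to 76.5% of cases, too few for a count test.

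Named genes were Snrnp70 and Hnrnpu, the 15 largest rises and 15 largest falls among called genes whose groups do not overlap and whose mean was at least 10 FPKM, called members of gene lists with the members of smallest p, and called small RNA loci with the largest difference. Longer sets are given in part, and some genes are not reported here. Levels given for uncalled markers such as Gfap, Sst, Pvalb and Pdgfra were chosen after their values were seen. The gene lists, the rules and the comparison itself were chosen with earlier results of these data known. Alternatives were another pseudocount, filter or scaling, removal of length or GC trends, robust eBayes, a replicate block, all 12 libraries in the fit, and omission of each library. Exon overlaps come from GENCODE M21 and sequences from RefSeq, both on GRCm38, with 22791 of 23352 entries (97.6%) matched by name or identifier. Replicates 1, 2 and 3 of the genotypes were not treated as pairs, since the labels do not pair them. Correlations of their deviations at 12 months were 0.07, -0.004 and 0.19. Those between differing numbers ran from -0.22 to 0.19, so the values do not decide whether the numbers pair the samples.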

Additional observations from a re-analysis of the deposited data

Results flagged for a closer look

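For 9 of 13945 genes the genotype difference at 12 months differed from that at 3 months in a test of the difference itself with limma on all 12 libraries. Values are the 12-month minus the 3-month difference (log2) with its SE and the adjusted p over all genes.

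Tfrc, the transferrin receptor gene, had a difference between the ages of 0.54 ± 0.07 (adjusted p = 0.0246). At 3 months it measured 29.0, 30.4 and 26.3 FPKM in wild type and 28.0, 27.5 and 27.7 FPKM in N40K, and at 12 months 18.7, 17.5 and 18.5 FPKM in wild type and 26.5, 26.8 and 25.3 FPKM in N40K. The wild-type level was lower at 12 months than at 3 months, while the N40K level was nearly the same at both ages. Gbp3, a guanylate-binding protein gene induced by interferon, differed by 0.89 ± 0.12 (adjusted p = 0.0246). It measured 3.94, 3.84 and 3.68 FPKM in wild type and 2.44, 2.20 and 2.85 FPKM in N40K at 3 months and 1.73, 1.37 and 1.44 FPKM in wild type and 2.15, 2.29 and 2.66 FPKM in N40K at 12 months, so the order of the genotypes was opposite at the ages.

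The joined entry H2-D1;H2-L (0.68 ± 0.10, adjusted p = 0.0363) and LOC547349 (0.79 ± 0.10, adjusted p = 0.0246) had the same order of groups as Gbp3. Reads of the first may be split with H2-D1 and H2-L, which the table also lists alone. Mir23b, a microRNA locus, differed by 0.68 ± 0.09 (adjusted p = 0.0246), with 7.34, 6.70 and 7.66 FPKM in wild type and 11.1, 10.2 and 10.5 FPKM in N40K at 12 months.

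Jun, an AP-1 gene, differed by -0.61 ± 0.09 (adjusted p = 0.0407). It measured 22.5, 21.4 and 23.8 FPKM in wild type and 27.7, 30.9 and 27.5 FPKM in N40K at 3 months and 22.4, 23.1 and 20.8 FPKM in wild type and 18.2, 17 and 19.3 FPKM in N40K at 12 months, higher in N40K at the younger age and lower at the older. Ramp2, of endothelial cells, differed by -0.50 ± 0.07 (adjusted p = 0.0246), and Klhl26, an adaptor of a ubiquitin ligase, by -0.40 ± 0.06 (adjusted p = 0.0363), both in the same order as Jun. The noncoding gene 9530052E02Rik differed by -0.84 ± 0.10 (adjusted p = 0.0246). It measured 1.67, 1.79 and 1.71 FPKM in wild type and 3.63, 4.28 and 4.57 FPKM in N40K at 3 months, with the groups apart, and 2.67, 2.48 and 2.22 FPKM in wild type and 2.60, 2.68 and 2.68 FPKM in N40K at 12 months, with the groups overlapping.

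The count depended on single libraries. It was 0 without wild-type replicate 1 or 2 or N40K replicate 3 at 3 months, 0 without wild-type replicate 2 or N40K replicate 2 or 3 at 12 months, 1 and 3 without wild-type replicate 3 and N40K replicate 2 at 3 months, 20 without wild-type replicate 3 at 12 months, and 162 without N40K replicate 1 at 3 months. With Xist, whose level differs between the sexes, as a covariate it was 0. The limma fits with 0 calls had 1506 to 1928 genes at an unadjusted p under 0.05.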

How the results depend on the processing

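Every called gene named in the text kept its direction under every alternative run, whereas some list medians near 0 changed sign. The 1532 calls at 12 months became 807 with the replicate number as a block (replicate block, 524 higher and 283 lower) and 2632 with all 12 libraries in the fit (1557 and 1075), of which 765 and 1465 were among the original calls. Rises numbered 608 where a mean of at least 5 FPKM was required. Omitting single libraries gave 157 to 1521 calls, 104 to 889 higher and 53 to 632 lower. The 9 calls between ages were 0 under the replicate block and 0 with Xist as a covariate, and 0 to 162 under omissions.

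Under the replicate block rises numbered 3 for chromatin genes, 13 for Zfp genes, 5 for interferon genes and 3 for histocompatibility genes, and falls 3 for heat shock and 4 for presynaptic genes. The labels do not say that replicate numbers pair the samples, so these counts describe that fit alone. With all 12 libraries in the fit, rises numbered 19 for chromatin, 51 for Zfp and 16 for interferon genes, and heat shock falls 14. With no filter, rises numbered 2 for chromatin, 16 for Zfp and 3 for interferon genes, and falls 8 for ER and 2 for heat shock genes. With a mean of at least 5 FPKM, rises numbered 16 for Zfp, 8 for microRNA, 1 for interferon and 2 for histocompatibility genes. Quantile normalization left 14 Zfp and 3 histocompatibility rises and 4 presynaptic falls.

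Omitting single libraries gave 3 to 14 ER falls, 1 to 7 heat shock falls, 1 to 8 presynaptic falls, 1 to 9 chromatin rises, 3 to 23 Zfp rises, 6 to 26 microRNA rises, 1 to 4 interferon rises and 0 to 5 histocompatibility rises. Of 359 named genes that were called, 56 held under all 6 omissions and 106 under all 11 other alternatives. Pseudocounts of 0.1 and 0.5 left 1485 and 1513 of the calls.

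With 3 libraries a group, depths of 42.6 to 96.8 mega reads and FPKM without counts, small differences in genes near 1 FPKM are least certain.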

Other observations

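Some called genes have not been named above. Sostdc1, a secreted Wnt inhibitor that marks the choroid plexus, was the choroid plexus marker that was called (6.30, 4.87 and 9.36 FPKM in the wild-type libraries and 1.42, 1.53 and 3.92 FPKM in the N40K libraries, -1.29 ± 0.30), and N40K replicate 3, highest in the choroid plexus sums, lay under all wild-type values of this gene. Rgs9, a signalling regulator of the striatum, was the marker of a neighbouring region that was called (2.19, 1.87 and 2.45 FPKM in the wild-type libraries and 2.77, 2.99 and 3.21 FPKM in the N40K libraries, 0.33 ± 0.09). Vegfa, a growth factor for vessels and neurons, measured 15.2, 13.1 and 15.9 FPKM in the wild-type libraries and 18.4, 19.3 and 18.2 FPKM in the N40K libraries (0.33 ± 0.07). Pde7b, which degrades cyclic AMP, was at -0.35 ± 0.06, and Eif4a2, a helicase of translation initiation, at -0.29 ± 0.07.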
